A study of Arabidopsis thaliana with 18 samples.

Results

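Untreated seedlings of 2 Arabidopsis thaliana mutants, gun1-9 and gun5, were compared with each other on 6 arrays, 3 per mutant, of the 18 arrays in the study. The arrays of each group were picked by their labels, and all 22746 probe sets other than the Affymetrix controls were tested. The comparison itself was chosen with earlier results of these data known. Both mutants were grown for 5 days on plates with 1% sucrose at 21 °C under continuous light, without norflurazon. The other 12 arrays hold the wild type Col-0 without norflurazon and all 3 genotypes on 5 µM norflurazon, with 3 arrays each. The series calls the 3 arrays of a group biological replicates. The labels do not say what the gun1-9 and gun5 alleles change in their genes. RNA came from bulk seedling material, so fewer cells of a type and less RNA per cell cannot be told apart.

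The name gun stands for genomes uncoupled. Such mutants were isolated because they keep nuclear photosynthesis genes expressed when norflurazon, a herbicide that blocks carotenoid synthesis, bleaches the plastids. GUN1 belongs to the pentatricopeptide repeat family and resides in plastids. GUN5 encodes the large H subunit of the chelatase that inserts magnesium into protoporphyrin, which commits tetrapyrroles to chlorophyll. Their products therefore act in plastid-to-nucleus signalling through different proteins, and the comparison without norflurazon asks how far the 2 mutants differ without the herbicide. The annotation used here gives neither GUN1 nor GUN5 a probe set of its own, so the labels were not checked against the mutated genes.

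The 6 arrays had close intensity distributions, with medians between 14.7 and 15.6 in the linear intensity units of the deposited table. Pearson's r across probe sets was 0.992 to 0.996 between arrays of 1 mutant and 0.992 to 0.995 between arrays of different mutants. The number of arrays limits the precision: the median 95% interval reached 0.27 log2 units to either side of the estimate, and 95.2% of probe sets had a half-width under 0.5. Green-tissue probe sets were bright in both mutants, as for the antenna gene LHCB4.2 with 4468 ± 515 in gun1-9 and 4854 ± 284 in gun5 (SD, n = 3), and the Rubisco activase gene RCA with 7374 ± 75.7 and 7082 ± 460. The root expansin EXPA7 read 49.2 ± 14.9 in gun1-9 and 60.0 ± 11.3 in gun5, and EXPA18 read 118 ± 32.2 and 126 ± 30.0.

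Few transcripts differed between the untreated mutants. Limma called 37 of 22746 probe sets at a Benjamini-Hochberg adjusted p under 0.05, which is 0.163% of those tested. Of these, 13 (0.0572% of those tested) were higher in gun1-9 and 24 (0.106%) were lower in gun1-9 and so higher in gun5. Differences are given as gun1-9 minus gun5 on the scale log2(intensity + 1), which understates changes of dim probe sets. Among the called probe sets 23 differed by at least 2-fold, 8 higher and 15 lower, and the median size of the 37 differences was 1.06, with a range from 0.48 to 3.93. Over all probe sets the median difference was 0.014, its median size 0.098, and 99.8% lay within 1 log2 unit of 0. In all 37 the arrays of the mutants did not overlap, and 14.1% of all probe sets had no overlap. Choosing the 37 by p in these same arrays favours such separation, so it is no further evidence.

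The share of probe sets with an unadjusted p under 0.05 was 8.63%, or 1963, of which 1049 were higher in gun1-9. At an adjusted p under 0.1 the count was 109. A further 25 probe sets differed by at least 2-fold without passing the test. The 37 calls rest on a spread estimated over all 18 arrays: with only the 6 arrays compared, limma called 11, of which 8 were among the 37, and with the 9 untreated arrays 19, of which 14 were. Leaving out 1 of the 6 arrays gave between 15 calls, without gun5 replicate 3, and 46, without gun1-9 replicate 2, and 13 of the 37 were called whichever array was left out.

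**Figure D1:**
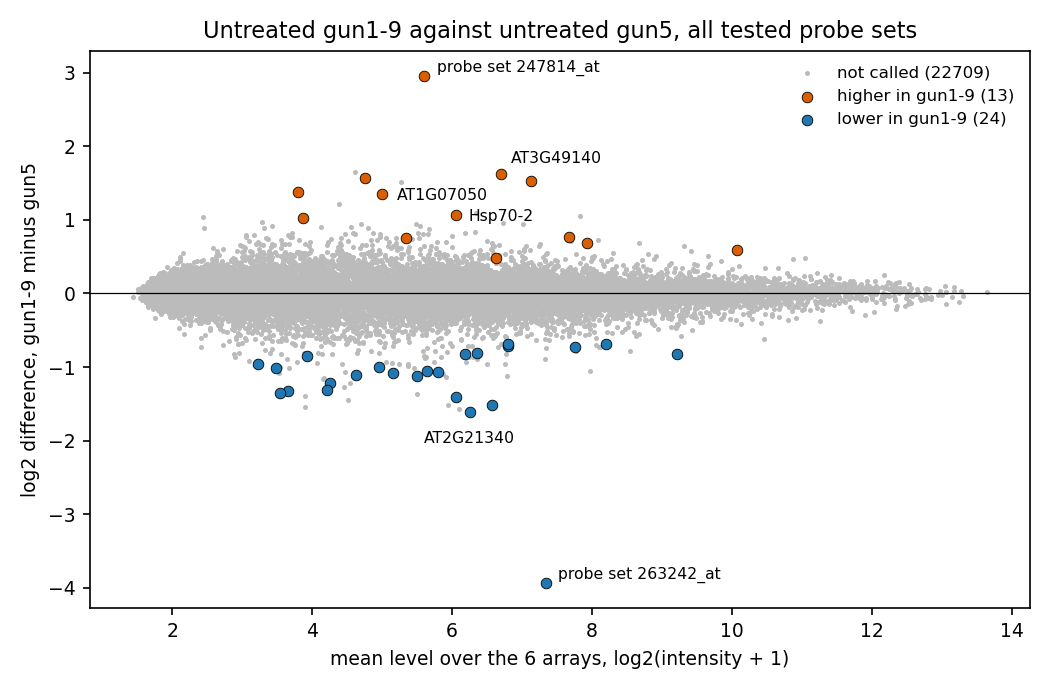
Each point is 1 of 22746 probe sets, with its mean level over the 6 untreated arrays, log2(intensity + 1), on the horizontal axis and the gun1-9 minus gun5 log2 difference on the vertical axis. Orange points are the 13 probe sets called higher in gun1-9 and blue points the 24 called lower, and probe set 263242_at lies far below all others at -3.93.

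Of the 37 probe sets, 19 have 1 gene in the annotation, 5 of them higher in gun1-9 and 14 lower, and 18 are not listed there. The 19 genes are spread over all 5 nuclear chromosomes, with 6 of 3451 tested single-gene probe sets on chromosome 1, 3 of 2200 on chromosome 2, 2 of 2746 on chromosome 3, 4 of 1962 on chromosome 4 and 4 of 3008 on chromosome 5. The Col-0 mean lay nearer to gun1-9 for 26 of the 37 and nearer to gun5 for 11. Tests against Col-0 share arrays with the comparison of the mutants, and are given beside it only to place each level. Over all probe sets, limma called 90 (0.396%) between untreated gun1-9 and Col-0 and 380 (1.67%) between untreated gun5 and Col-0, the latter 0.870% higher and 0.800% lower in gun5.

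Among the genes higher in gun1-9, AT3G49140, predicted to encode a protein of the pentatricopeptide repeat family, had the largest difference. Its intensity was 208, 178 and 161 in the gun1-9 arrays and 60.7, 57.2 and 56.4 in the gun5 arrays. All gun1-9 arrays lay above all gun5 arrays, and the Col-0 mean of 187 ± 14.3 was close to that of gun1-9. The log2 difference was 1.63 (SE 0.15, adjusted p = 5.83e-05), a 3.09-fold difference. Against Col-0, gun5 differed by -1.66 (adjusted p = 3.14e-05) and gun1-9 by -0.04 (adjusted p = 0.966).

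AT1G07050, which encodes a CCT-motif protein of the kind found in light and clock regulators, read 69.1, 38.0 and 47.8 in gun1-9 and 16.6, 25.1 and 16.5 in gun5. The mutants did not overlap, and both lay below the Col-0 arrays, whose mean was 104 ± 18.22. The difference between the mutants was 1.35 (SE 0.23, adjusted p = 0.017). It was not called without gun1-9 replicate 1 or 3 or without gun5 replicate 1 or 3, with an adjusted p of up to 0.112. The difference from Col-0 was -2.38 in gun5 (adjusted p = 4.97e-05) and -1.03 in gun1-9 (adjusted p = 0.063).

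Hsp70-2 (AT5G02490), a cytosolic HSP70 chaperone that helps proteins fold, read 96.2, 78.7 and 115 in gun1-9 and 39.6, 49.7 and 47.2 in gun5. Here gun1-9 stood apart, since the Col-0 mean of 40.0 ± 2.17 lay near that of gun5. The difference between the mutants was 1.06 (SE 0.16, adjusted p = 0.00691), and that between gun1-9 and Col-0 was 1.24 (adjusted p = 0.0016). The 4 measured genes of a heat-shock list, which does not hold Hsp70-2, ran from -0.15 to 0.47 between the mutants, and none was called. On norflurazon all 4 were called higher in gun1-9, with a median of 0.91, against 6.42% of all probe sets. The list was chosen with earlier results of these data known.

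The other 2 genes higher in gun1-9 differed by under 2-fold. AT4G25170 read 323, 297 and 309 in gun1-9 and 201, 183 and 193 in gun5, and Col-0 lay between at 278 ± 13.8. The groups were tight and well apart, and the difference was 0.69 (SE 0.10, adjusted p = 0.00807). AT5G39570 read 1339, 1275 and 1343 in gun1-9 and 941, 865 and 824 in gun5, a difference of 0.59 (SE 0.09, adjusted p = 0.00807). The Col-0 mean of 1282 ± 149 was near that of gun1-9. Without gun5 replicate 3 the adjusted p was 0.0682 for AT5G39570, and AT4G25170 reached at most 0.0545, losing its call without gun5 replicate 2 or 3.

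**Figure D2:**
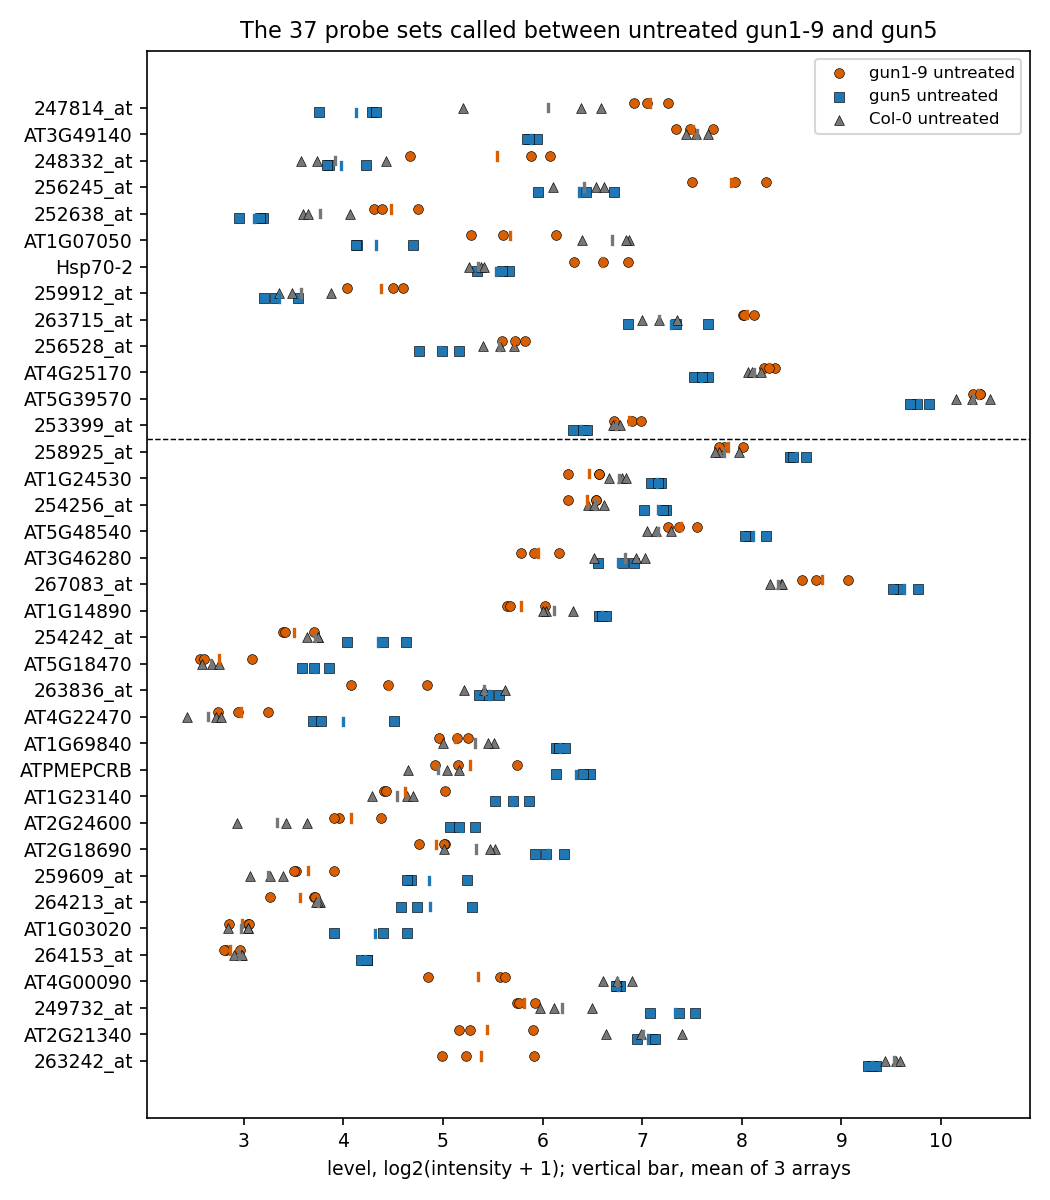
Levels, log2(intensity + 1), of the 37 called probe sets in every untreated array of gun1-9 (orange circles), gun5 (blue squares) and Col-0 (grey triangles), with a short vertical bar at each mean of 3 arrays. The 13 probe sets above the dashed line were higher in gun1-9 and the 24 below it higher in gun5, and the orange and blue symbols do not overlap in any row.

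In 3 of the 14 genes that were higher in gun5, gun1-9 lay below Col-0 and gun5 did not differ from it beyond the test. AT2G21340, a MATE-family transporter gene, read 34.7, 59.0 and 37.7 in gun1-9 and 136, 139 and 123 in gun5, with 131 ± 34.6 in Col-0. Every gun1-9 array lay below every array of the other genotypes. The difference between the mutants was -1.61 (SE 0.27, adjusted p = 0.0156), and gun1-9 differed from Col-0 by -1.56 (adjusted p = 0.0156). The call between the mutants was lost without gun1-9 replicate 1 or 3 or without any 1 of the gun5 arrays, with an adjusted p of up to 0.0744.

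AT4G00090, which encodes a WD40-repeat protein, had the same order. It read 46.6, 48.3 and 27.9 in gun1-9 and 107, 109 and 106 in gun5, and 107 ± 11.1 in Col-0. The gun5 arrays were nearly equal to one another, and the lowest of them was far above the highest gun1-9 array. The difference was -1.41 (SE 0.16, adjusted p = 0.000538) between the mutants and -1.40 (adjusted p = 0.000576) between gun1-9 and Col-0. AT3G46280, a gene related to protein kinases, read 59.1, 71.0 and 54.3 in gun1-9 and 93.4, 111 and 120 in gun5, with 114 ± 20.9 in Col-0. Its differences were -0.81 (SE 0.13, adjusted p = 0.0153) between the mutants and -0.87 (adjusted p = 0.00848) between gun1-9 and Col-0.

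In 8 genes gun5 lay above Col-0 by the test and gun1-9 did not differ from Col-0 beyond it. AT1G03020, which encodes a glutaredoxin, a small thiol-dependent oxidoreductase, read 6.23, 7.23 and 7.33 in gun1-9 and 20, 24 and 14 in gun5. The gun1-9 arrays and the Col-0 mean of 6.89 ± 0.618 were alike in level, and the gun5 arrays stood above both. The difference was -1.33 between the mutants (SE 0.18, adjusted p = 0.00219) and 1.34 between gun5 and Col-0 (adjusted p = 0.000859). AT1G03020 is dim, which lets the log2(intensity + 1) scale understate its fold.

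AT2G24600, an ankyrin-repeat gene, read 14.6, 13.95 and 19.8 in gun1-9 and 32.6, 39.1 and 34.7 in gun5, above the Col-0 mean of 9.29 ± 2.44. The gun5 arrays were the highest of the 3 genotypes, and the gun1-9 arrays also all lay above the Col-0 arrays. The mutants differed by -1.11 (SE 0.20, adjusted p = 0.0332), gun5 differed from Col-0 by 1.85 (adjusted p = 0.000172) and gun1-9 from Col-0 by 0.75 (adjusted p = 0.146).

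ATPMEPCRB (AT4G02330, pectin methylesterase 41), which removes methyl groups from cell-wall pectin, read 52.7, 29.2 and 34.6 in gun1-9 and 69.3, 87.8 and 83.6 in gun5. The Col-0 mean of 30.3 ± 5.49 was near the lower gun1-9 arrays, and the difference between the mutants was -1.07 (SE 0.19, adjusted p = 0.0262). AT5G48540, related to the extracellular part of receptor-like kinases, read 152, 186 and 165 in gun1-9 and 268, 260.3 and 302 in gun5, against 143 ± 12.4 in Col-0. Its difference was -0.72 (SE 0.12, adjusted p = 0.0153), and no gun5 array came near the gun1-9 range.

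AT5G18470, a curculin-like lectin gene, read 4.89, 7.5 and 5.09 in gun1-9 and 10.97, 13.5 and 12.1 in gun5, a difference of -0.96 (SE 0.15, adjusted p = 0.013). AT4G22470, which encodes a protein of the lipid-transfer and protease-inhibitor type, read 8.46, 5.69 and 6.68 in gun1-9 and 11.99, 21.7 and 12.7 in gun5, a difference of -1.02 (SE 0.19, adjusted p = 0.0332). Both genes were dim in gun1-9 and Col-0. Their Col-0 means, 5.39 ± 0.380 and 5.29 ± 0.770, were below the gun1-9 means of 5.83 and 6.94. AT1G69840, of the SPFH or prohibitin-like family of membrane proteins, read 30.2, 37 and 34.4 in gun1-9 and 69.1, 71.0 and 73.8 in gun5, a difference of -1.06 (SE 0.19, adjusted p = 0.0307). AT1G69840 had an adjusted p between 0.0503 and 0.119 whichever of the 6 arrays was left out, although limma called it with the 6 arrays alone.

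AT1G23140, a C2-domain gene, read 20.2, 20.5 and 31.5 in gun1-9 and 57.2, 45.0 and 51.0 in gun5, with Col-0 at 22.5 ± 3.49 and a difference between the mutants of -1.08 (SE 0.18, adjusted p = 0.0153). Only the gun5 arrays stood above the Col-0 range by a wide margin. The 3 genes left had a Col-0 mean between those of the mutants, and neither mutant passed the test against Col-0. AT2G18690 read 26.1, 31.5 and 31.2 in gun1-9 and 64.7, 59.6 and 73.1 in gun5, a difference of -1.13 (SE 0.18, adjusted p = 0.0153). The gun5 arrays were far above every gun1-9 array. AT1G14890, which encodes an inhibitor of the invertase and pectin methylesterase type, had means of 54.3 ± 8.38 in gun1-9 and 96.1 ± 2.35 in gun5, a difference of -0.82 (SE 0.15, adjusted p = 0.0285). The WD40-repeat gene AT1G24530 had means of 87.7 ± 10.5 and 141 ± 4.74, a difference of -0.68 (SE 0.12, adjusted p = 0.0298).

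Of the 19 genes, 4 were called whichever of the 6 arrays was left out: AT3G49140, Hsp70-2, AT4G00090 and AT1G03020. Each of the other 15 lost its call without at least 1 array, with an adjusted p of up to 0.142, and none changed sign. Each of the 6 arrays ended the call of at least 1 of these 15 when left out. In the fit of the 6 arrays alone, AT3G49140, AT1G69840 and AT2G18690 were the named genes among the 8 retained calls.

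The 2 largest differences in each direction among the 18 probe sets without a listed gene were chosen for naming after their values were seen. The largest difference of the whole comparison belonged to probe set 263242_at. It read 36.6, 30.8 and 59.1 in gun1-9 and 634, 613 and 650 in gun5, with 736 ± 41.6 in Col-0. The gun1-9 arrays were far below those of both other genotypes, and the difference between the mutants was -3.93 (SE 0.16, adjusted p = 3.17e-10), or 15.2-fold. Probe set 249732_at read 52.8, 59.8 and 53.4 in gun1-9 and 165, 134 and 183 in gun5, a difference of -1.51 (SE 0.22, adjusted p = 0.00468), with Col-0 at 73.1 ± 14.4.

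Higher in gun1-9 were probe sets 247814_at and 248332_at. The first read 132, 152 and 120.2 in gun1-9 and 12.5, 18.5 and 19.1 in gun5, a difference of 2.95 (SE 0.27, adjusted p = 5.83e-05). Its Col-0 arrays, at 35.9, 82.5 and 94.98, lay between the mutants and were far apart. Probe set 248332_at read 66.3, 24.4 and 57.9 in gun1-9 and 13.5, 13.3 and 17.7 in gun5, a difference of 1.56 (SE 0.29, adjusted p = 0.0346). Its lowest gun1-9 array stood apart from the others, and the call held without that array (gun1-9 replicate 2) but not without any other of the 6, with an adjusted p of up to 0.141.

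The same 2 mutants on norflurazon were measured on separate arrays, so that comparison shares no array with the untreated one, although the fit estimates the spread of a probe set over all 18. On norflurazon limma called 2950 probe sets between gun1-9 and gun5, 13.0% of those tested, 6.42% higher and 6.55% lower in gun1-9. These were 1461 and 1489, and with each array centred on its median 1134 and 1766. Of the 37 untreated calls, 22 (59.5%) were called there too, 21 in the same direction and 1, probe set 249732_at, in the opposite one. The 21 are 10 of the 13 higher and 11 of the 24 lower in gun1-9. In a fit of the 6 norflurazon arrays alone, which called 2369 (10.4%), 20 of the 37 were called, 19 of them in the same direction. The sign of the difference was the same in both conditions for 29 of the 37.

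Several genes were called in the same direction in both conditions. AT3G49140 read 205, 191 and 215 in gun1-9 and 69.8, 62.9 and 95.3 in gun5 on norflurazon, a difference of 1.43 (SE 0.15, adjusted p = 4.63e-06). AT2G21340 differed by -2.16 (SE 0.27, adjusted p = 2.53e-05), AT1G03020 by -1.30 (SE 0.18, adjusted p = 6.04e-05) and AT2G24600 by -1.27 (SE 0.20, adjusted p = 0.000311). AT4G00090 differed by -0.85 (adjusted p = 0.00137), AT5G48540 by -0.92 (adjusted p = 3.35e-05), AT5G39570 by 0.75 (adjusted p = 1.81e-05) and AT1G07050 by 0.85 (adjusted p = 0.0186). For none of these 8 genes did the difference between the mutants depend on norflurazon by the test, with adjusted p between 0.197 and 0.972, which does not show that the differences were equal. For AT4G00090, at -1.41 without norflurazon, the change was 0.55, with an unadjusted 95% interval of 0.08 to 1.03.

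A test of whether the difference between the mutants depended on norflurazon called 1241 probe sets, 5.46% of all, with 2.39% where the difference moved up on norflurazon and 3.06% where it moved down. This test uses the untreated arrays that chose the 37, so its 18 calls among them are a description. Hsp70-2 was the most affected of the genes higher in gun1-9. On norflurazon it read 297, 464 and 388 in gun1-9 and 28.5, 22.7 and 29.9 in gun5, so that gun1-9 was above and gun5 below its untreated level. The difference grew from 1.06 to 3.76, a change of 2.70 (SE 0.22, adjusted p = 3.96e-07). AT4G25170 behaved alike, with 671, 740.0 and 678 in gun1-9 and 80.8, 95.4 and 70.5 in gun5 on norflurazon, and a change in the difference of 2.39 (SE 0.15, adjusted p = 9.99e-09).

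Other differences were not detected on norflurazon. ATPMEPCRB read 52.0, 65.3 and 48.1 in gun1-9 and 50.8, 39.4 and 47.5 in gun5, which overlap, and its difference there was 0.26 (95% interval of the change from untreated seedlings, 0.76 to 1.88, adjusted p = 0.00556). AT1G69840 differed by 0.24, AT2G18690 by -0.12, AT3G46280 by 0.12, AT5G18470 by -0.16, AT4G22470 by -0.002 and AT1G24530 by 0.03, with arrays of the 2 mutants overlapping in each. In all 7 genes the change from the untreated difference was called. AT1G23140 and AT1G14890 had differences of -0.31 and -0.16 on norflurazon, and their change was not called (adjusted p = 0.0924 and 0.0762). Probe set 249732_at turned round: on norflurazon it read 82.3, 79.2 and 49.5 in gun1-9 and 12.9, 6.85 and 12.1 in gun5, a difference of 2.63 (adjusted p = 2.07e-07).

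**Figure D3:**
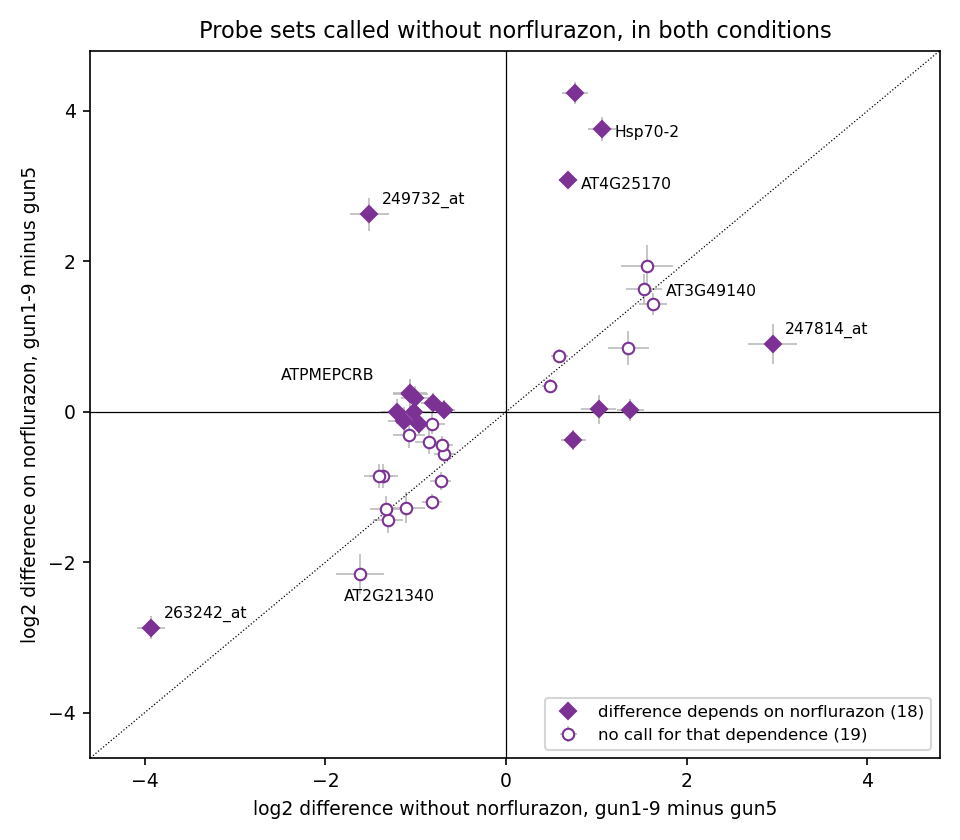
The gun1-9 minus gun5 log2 difference of the 37 called probe sets without norflurazon (horizontal axis) and on norflurazon (vertical axis), with bars of 1 SE and a dotted line where both are equal. Filled diamonds are the 18 probe sets whose difference depended on norflurazon by the test, and probe set 249732_at is the 1 called in opposite directions.

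The measured genes of the plastid genome and of nuclear photosynthesis and pigment lists showed no called difference between the untreated mutants. The called probe sets were not classed by plastid function. Of 69 probe sets for genes of the plastid genome, which encodes core photosystem subunits, the Rubisco large subunit and part of the plastid gene expression machinery, none was called by limma and none had an unadjusted p under 0.05, where 8.63% of all probe sets did. Their differences ran from -0.37 to 0.49 with a median of 0.020, and the outermost bounds of their 95% intervals were -0.80 and 1.16. The Rubisco large subunit gene rbcL read 316, 241 and 457 in gun1-9 and 293, 267 and 296 in gun5. The photosystem I core gene psaA read 1830, 1652 and 1022 in gun1-9 and 2296, 1697 and 1530 in gun5. The arrays of the 2 mutants overlapped for both.

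On norflurazon, 66 of the same 69 plastid probe sets were called lower in gun1-9 than in gun5, against 6.55% of all probe sets, and none higher, with a median difference of -4.07. There rbcL had means of 10.4 ± 2.43 in gun1-9 and 294 ± 36.0 in gun5, and psaA 4.90 ± 0.941 and 617 ± 132. For 65 of the 69 the change between conditions was called, in the direction that held 3.06% of all probe sets. The exceptions to the lower calls, petD, rps14 and ndhF, differed by -0.41, -0.19 and -0.28.

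Among nuclear genes, 25 of photosynthesis and pigment synthesis had a probe set of their own, a minority of those listed. They were 3 of 20 antenna, 5 of 34 photosystem and electron transport, 6 of 31 Calvin cycle, 9 of 33 tetrapyrrole and 2 of 17 carotenoid genes. None of the 25 was called, 1 had an unadjusted p under 0.05, and 24 differed by less than 0.25 log2 units. The exception was LHCB4.3, a minor antenna protein of photosystem II, which read 500.4, 520.3 and 454 in gun1-9 and 331, 345 and 407 in gun5, a difference of 0.45 (adjusted p = 0.308) in arrays that did not overlap. Its relatives LHCB4.1 and LHCB4.2 had differences of -0.13 and -0.12. On norflurazon 13 of the 25 were called, against 13.0% of all probe sets. Since the lists were chosen with earlier results of these data known, this share is a description. Of the 13 called, 4 were higher in gun1-9, the 3 antenna genes and PORB, and 9 were lower.

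In tetrapyrrole synthesis, the pathway of the GUN5 protein, 9 genes were measured with differences from -0.22 to 0.22. PORB, which makes chlorophyllide from protochlorophyllide in light, read 918, 814 and 821 in gun1-9 and 816, 902 and 940.1 in gun5. CHLI2, another subunit of magnesium chelatase, had means of 398 ± 33.7 and 398 ± 34.5, and the 95% interval of its difference ran from -0.27 to 0.27. HEME2, a uroporphyrinogen decarboxylase gene, read 456, 459 and 481 in gun1-9 and 537, 534 and 553 in gun5. Its arrays did not overlap, and its difference was -0.22 (adjusted p = 0.667).

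Of 544 genes on 25 gene lists, 94 had a probe set of their own, and none was called by limma. An unadjusted p under 0.05 was found for 13 of the 94 (13.8%), against 8.63% of all probe sets. The lists were chosen with earlier results of these data known, so their shares describe the members and are no independent test. The median difference of the 94 was -0.018 and its median size 0.126, against 0.014 and 0.098 for all. The largest was that of DFR, a late anthocyanin enzyme, with 40.7, 12.6 and 38.5 in gun1-9 and 86.3, 55.3 and 77.5 in gun5. These arrays did not overlap, but the gun1-9 arrays were scattered, and the difference of -1.37 had an adjusted p of 0.269. UF3GT, a flavonoid glycosyltransferase gene, differed by -0.83 (adjusted p = 0.463). The 7 flavonoid genes had a median of -0.18 and 1 above 0. On norflurazon DFR and UF3GT differed the other way, by 3.32 (adjusted p = 3.66e-05) and 2.96 (adjusted p = 6.54e-06).

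Mitochondrial stress genes had a median difference of 0.45 over 5 measured members. Of these, 3 had an unadjusted p under 0.05, against 8.63% of all probe sets, on a list chosen with earlier results known. The other members, AT5G09570 and NDB2, had differences of -0.05 and -0.01. The median was that of GSTU25, 1 of the 3, with an adjusted p of 0.517. GSTU25 read 148, 217 and 201 in gun1-9 and 184, 113 and 121 in gun5, which overlap. Its Col-0 mean of 230 ± 20.6 was above the means of both mutants. AT5G51440, a small heat shock protein gene of mitochondria, read 13.4, 7.29 and 9.78 in gun1-9 and 5.24, 6.4 and 4.63 in gun5, a difference of 0.77 (adjusted p = 0.163). AT2G21640, a marker of oxidative stress, had means of 12.8 ± 2.63 and 7.52 ± 0.746, a difference of 0.68 (adjusted p = 0.408). Both were dim here. On norflurazon AT5G51440 reached 298 ± 7.18 in gun1-9 and 85.5 ± 13.0 in gun5, and AT2G21640 reached 561 ± 80.5 and 127 ± 45.6.

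The 4 cold and abscisic acid genes all had differences above 0, with a median of 0.40, and COR15B, a cold-induced chloroplast protein gene, had means of 12.8 ± 2.05 in gun1-9 and 7.76 ± 1.12 in gun5 (difference 0.66, adjusted p = 0.198). STZ, a zinc-finger repressor of the stress response, read 4.52, 9.73 and 27.2 in gun1-9 and 8.55, 18.4 and 101 in gun5. Its difference of -1.17 (adjusted p = 0.662) lay within a wide spread, with gun5 replicate 3 far above all other arrays. The readings rose with replicate number in both mutants and in Col-0 (4.45, 6.34 and 13.1), and the cause was not tested. The isocitrate lyase gene ICL, which serves seedling growth on stored oil, was also scattered, with 25.1, 4.16 and 22.8 in gun1-9 and 4.47, 14.76 and 4.6 in gun5.

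Auxin-response genes, also a list chosen with earlier results known, had a median difference of -0.21. Of the 5 measured, 3 had an unadjusted p under 0.05, against 8.63% of all probe sets. The 3 did not share a direction, with -0.58 for GH3.3, -0.41 for HAT2 and 0.22 for GH3.1. GH3.3, which conjugates auxin to amino acids, read 23.98, 20.11 and 20.01 in gun1-9 and 20.4, 41.8 and 39.3 in gun5 (adjusted p = 0.398). Its first gun5 array lay within the gun1-9 range, and without that array (gun5 replicate 1) GH3.3 was called.

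Among gene families, 47 UDP-glycosyltransferases had differences from -0.39 to 0.59 and a median of -0.04, 26 cytochromes P450 a median of -0.03, and 23 expansins and xyloglucan hydrolases a median of -0.11. No member of them was called. GSTU22, a glutathione transferase gene, came nearest to the threshold, with 161, 179 and 159 in gun1-9 and 110.1, 106 and 101 in gun5. Its arrays were tight and did not overlap, and the difference of 0.65 (SE 0.14) had an adjusted p of 0.0686. WRKY47, a transcription factor gene, had means of 17 ± 3.49 and 25.3 ± 2.06 (difference -0.56, adjusted p = 0.192). The lists for the cell cycle and meristem, the mitochondrial genome, and the symbol-based families of ethylene response factors, heat shock proteins and lipid transfer proteins matched no single-gene probe set. Such genes can still be among those listed under another symbol or a locus code, as Hsp70-2 and AT4G22470 are.

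**Figure D4:**
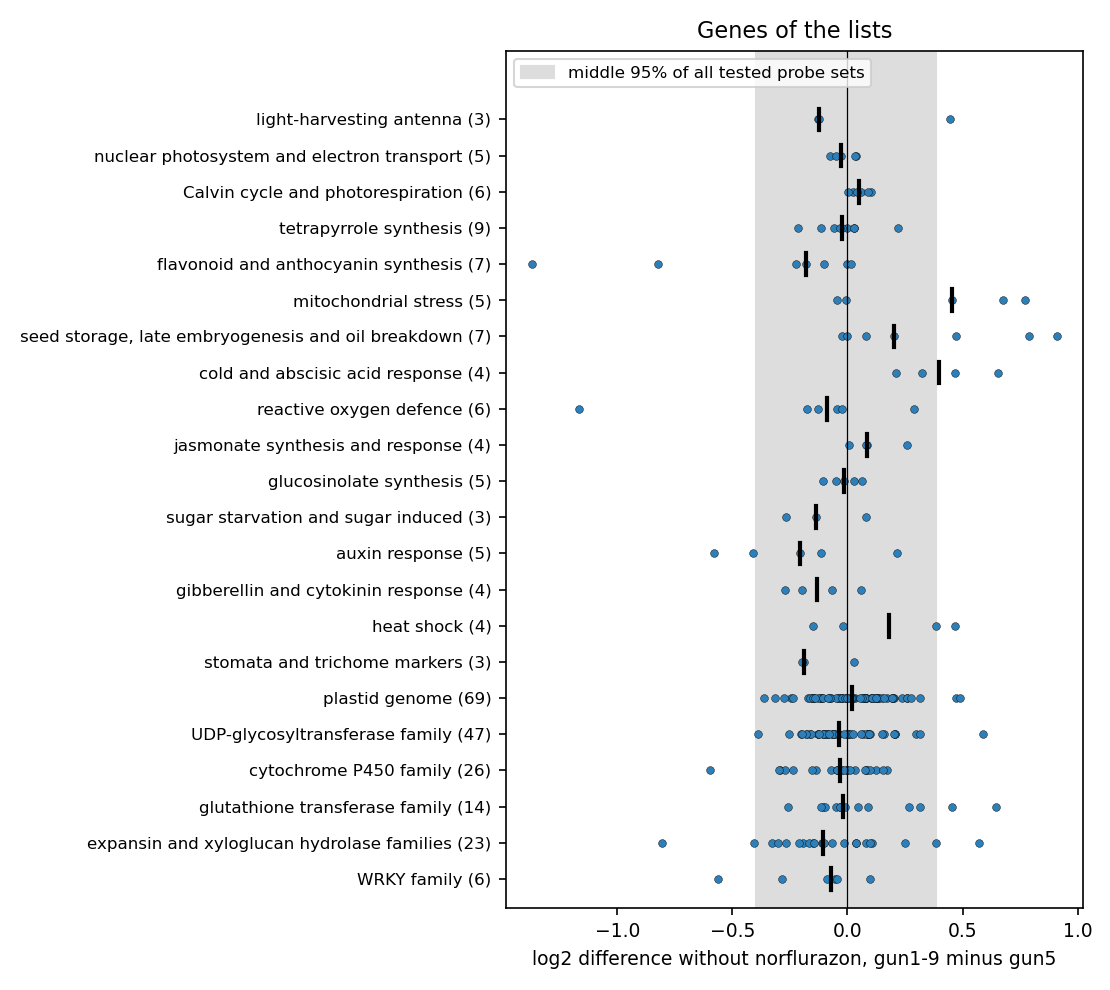
Each point is the gun1-9 minus gun5 log2 difference of 1 gene without norflurazon, by list, for the lists with at least 3 measured members (number in brackets), with a black bar at the list median and a grey band from -0.40 to 0.38 that holds the middle 95% of all tested probe sets. No point is a called gene, and the 69 plastid genes centre on 0.020.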

How the data were processed

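Per the labels, total RNA was labelled with biotin for Affymetrix arrays. The authors deposited 1 table of linear intensity values per probe set, with 1 column per array. Per the submitters' processing notes, GCRMA and MAS5 were used, and neither has a stated role. GCRMA can push dim probe sets into a narrow band, and normalization between arrays removes part of any shift shared by most transcripts. Of 22810 rows, 64 controls were left out. The platform annotation names 1 gene for 13513 of the 22746 tested probe sets and more than 1 for 503. The remaining 8730 are not in it. Symbols came from a RefSeq table of assembly TAIR10.1, in which 13436 were found. No coordinates or sequences are given.

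Values were transformed to log2(intensity + 1), and limma 3.58.1 (R 4.3.3) fitted a mean for each of the 6 groups over all 18 arrays, followed by eBayes with prior degrees of freedom of 4.48 and 2-sided contrasts. P-values were adjusted over all 22746 probe sets by the Benjamini-Hochberg method, with calls under 0.05. Folds are 2 to the power of the log2 difference. Named genes were the called genes with 1 annotated gene and groups that did not overlap, up to 15 per direction, plus members of the lists. A gene with several probe sets was counted by its brightest. The comparison and the gene lists were chosen with earlier results of these data known. Over all probe sets, deviations of same-numbered arrays of the mutants had correlations of 0.047, -0.055 and 0.128. Those of arrays with different numbers ran from -0.158 to 0.109. The main fit held no replicate term. Such a correlation cannot show whether single genes shared a replicate effect, which was not tested gene by gene. Before use, the model was tested on simulated data with independent noise and known differences of 1 or 2 log2 units, 100 of each. It called 93% and 100% of them, with 12 false calls. The simulated data held no array or replicate effects and no smaller differences, so the check does not cover these. Gene families were collected by the start of the symbol in the table, so members listed only by locus code were not counted. Alternatives were array sets, scaling, a filter on dim probe sets, the pseudocount, the variance model, a 2-fold minimum and 1 array left out. Figures were drawn with matplotlib 3.10.9.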

Additional observations from a re-analysis of the deposited data

Results flagged for a closer look

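For 12 of the named genes and probe sets, the difference between gun1-9 and gun5 depended on norflurazon by limma's test. The 12 come from the 19 called genes and, among probe sets without a listed gene, the 2 largest differences in each direction. Over all probe sets the test called 1241 (5.46%). Values are the log2 difference on norflurazon minus that without it. The change was 2.70 for Hsp70-2, 2.39 for AT4G25170 and 4.14 for probe set 249732_at, which were each called in both conditions. It was -2.05 for probe set 247814_at and 1.06 for probe set 263242_at, whose differences were smaller on norflurazon in the same direction. On norflurazon 247814_at was dim, with means of 7.77 ± 2.15 in gun1-9 and 3.62 ± 0.437 in gun5. The mean first quartile of the arrays was 3.8. At such levels the log2(intensity + 1) scale understates differences, and its part in the change of -2.05 was not tested. For the genes higher in gun5 without norflurazon the change was 1.32 for ATPMEPCRB, 1.29 for AT1G69840, 1.02 for AT4G22470, 1.01 for AT2G18690, 0.92 for AT3G46280, 0.81 for AT5G18470 and 0.71 for AT1G24530. The adjusted p of these changes ran from 9.99e-09 for AT4G25170 to 0.0361 for AT5G18470. The untreated arrays that chose these genes also enter this test. Groups of 3 arrays were too small to test for a single outlying array.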

How the results depend on the processing

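Of 15 alternatives for the untreated comparison, none reversed the sign of a called probe set, and 6 of the 37 were called in all: AT3G49140 and probe sets 247814_at, 249732_at, 252638_at, 263242_at and 264153_at. The 37 calls (13 higher, 24 lower) became 11 (4 and 7) with only the 6 arrays compared, 19 (7 and 12) with the 9 untreated arrays, 93 (29 and 64) with the trend and robust settings of eBayes, 23 (8 and 15) with a 2-fold minimum and 59 (22 and 37) with 16 added before the log. With 1 array left out they were 15 to 46 (7 to 23 higher, 8 to 23 lower). Quantile normalization gave 51, median centring 40 and the filter on dim probe sets 41. With the replicate block 47 were called, 34 of them among the 37. GSTU22 was called with the trend and robust settings.

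On norflurazon 2950 calls became 512 with the 2-fold minimum and 2189 to 2532 with 1 array left out. The 1241 calls for dependence on norflurazon became 494 and 964 to 1230. The 90 calls between untreated gun1-9 and Col-0 became 1 with the 6 arrays, 19 with the 9 untreated arrays, 141 with trend and robust settings, 39 with the 2-fold minimum and 27 to 120 with 1 array left out. The 380 calls between untreated gun5 and Col-0 became 123, 175 and 110 with the 6 arrays, the 9 arrays and the 2-fold minimum, and 160 to 300 with 1 array left out. The 2-fold minimum lowers counts by construction, and for the other moves, in either direction, the cause was not tested. For none of the 37 was the untreated mean of gun1-9 or gun5 below an intensity of 3.8, the level of the filter on dim probe sets.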
